A study of Rattus norvegicus with 2 samples.

Results

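The heat-shock chaperones described here were 7 genes picked by symbol: Hsph1, Dnajb1, Hspb1, Cryab, Bag3, Hspa8 and Hsp90aa1. All 7 symbols were among the 18147 genes listed for both single-cell RNA sequencing libraries of the series, which were made from cartilage of Lewis rats, an inbred strain that develops inflammatory arthritis after immunisation. One library, the control, is of rats with no treatment, which the series' design text names sham. The other is of rats with CIA, collagen-induced arthritis, whose treatment was type II collagen with Complete Freund's Adjuvant and whose tissue was collected on day 14. Both tissues had been brought to single cells in a warmed enzyme solution before the RNA was captured. There was 1 library per group, with no stated number of animals, so each comparison below is of these libraries and not of the conditions, with no replicate check and no test.

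Chaperones bind unfolded stretches of other proteins. Under heat or other protein-damaging stress, heat-shock factor HSF1 binds heat-shock elements in the promoters of a set of chaperone genes and raises their transcription, and the same set is induced by mechanical and inflammatory stress. Hspa8 encodes Hsc70, the HSP70 that most cells make all the time, while the other members are known for their induction. Hsph1 (HSP110) exchanges the nucleotide of HSP70 proteins, Dnajb1 (an HSP40) delivers clients to them, and Bag3 links them to small heat-shock proteins and to autophagy. Hspb1 (HSP27) and Cryab (alpha-B crystallin) are small heat-shock proteins that hold unfolded proteins without ATP, and Hsp90aa1 is the inducible HSP90. In cartilage, whose chondrocytes live under load and secrete large amounts of matrix, chaperones are studied as part of the response to mechanical and inflammatory stress.

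The control matrix held 5456 barcodes and 76927821 UMIs (UMIs, unique molecular identifiers, count the captured RNA molecules), and the CIA matrix held 8622 barcodes and 105752977 UMIs. After quality filters 5349 control and 8409 CIA cells remained, and 52 barcodes occurred in both libraries. Cells were put in classes by counting markers that do not include the members, after every cell had been thinned to 4000 UMIs. The 5 classes compared were chondrocyte-gated cells (283 control, 32 CIA), fibroblast-gated cells (1902 and 2887), cells gated as synovial lining (173 and 445), macrophage-gated cells (1121 and 3002) and endothelial-gated cells (631 and 510). Although the series title names articular chondrocytes, the chondrocyte gate took 5.29% of control and 0.381% of CIA cells. The CIA chondrocyte-gated cells were few and differed in makeup: the 13 chondrocyte markers summed to 44152 CPM (UMIs per 1e+06 UMIs of the summed cells) in control and 27554 CPM in CIA, and the 11 fibroblast markers to 29622 and 55193 CPM. The median count of Chad, a cartilage matrix gene, was 0 UMIs in the 32 CIA cells. Of the lining-gated cells, 100 of 173 control cells lay in Leiden cluster 14 and 333 of 445 CIA cells in cluster 8. Of the macrophage-gated cells, cluster 3 held 671 control cells and cluster 4 held 1552 CIA cells.

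The promoters of the members are shown first, because heat-shock elements are the sites through which HSF1 acts on inducible chaperone genes. RefSeq promoters of rat build GRCr8 were given for 5 of the 7 members, and each sequence below is the 250 bases before the annotated start, 5′ to 3′ on the gene's strand. Capitals mark every match to a pair of facing heat-shock units, GAANNTTC or TTCNNGAA. Each of these patterns is its own reverse complement, so that 1 search covers both strands. The windows lie at chr12:10427118-10427367 (plus strand) for Hsph1, chr19:41431142-41431391 (minus strand) for Dnajb1, chr12:26432302-26432551 (minus strand) for Hspb1, chr1:192533210-192533459 (plus strand) for Bag3 and chr8:50080264-50080513 (plus strand) for Hspa8.
Hsph1: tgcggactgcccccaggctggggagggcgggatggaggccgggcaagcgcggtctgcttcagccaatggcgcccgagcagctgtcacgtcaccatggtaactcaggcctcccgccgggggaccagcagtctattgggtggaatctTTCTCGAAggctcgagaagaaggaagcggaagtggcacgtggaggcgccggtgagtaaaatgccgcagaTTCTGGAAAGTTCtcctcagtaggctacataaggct
Dnajb1: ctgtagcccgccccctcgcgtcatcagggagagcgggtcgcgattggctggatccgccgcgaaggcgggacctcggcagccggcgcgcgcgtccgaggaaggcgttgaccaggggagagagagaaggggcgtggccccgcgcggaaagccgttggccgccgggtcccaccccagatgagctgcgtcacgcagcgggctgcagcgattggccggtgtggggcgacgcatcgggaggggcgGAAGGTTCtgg
Hspb1: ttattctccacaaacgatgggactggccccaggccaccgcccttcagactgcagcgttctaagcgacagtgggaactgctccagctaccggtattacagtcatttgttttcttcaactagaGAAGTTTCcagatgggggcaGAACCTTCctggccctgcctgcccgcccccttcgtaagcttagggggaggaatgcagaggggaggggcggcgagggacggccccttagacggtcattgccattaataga
Bag3: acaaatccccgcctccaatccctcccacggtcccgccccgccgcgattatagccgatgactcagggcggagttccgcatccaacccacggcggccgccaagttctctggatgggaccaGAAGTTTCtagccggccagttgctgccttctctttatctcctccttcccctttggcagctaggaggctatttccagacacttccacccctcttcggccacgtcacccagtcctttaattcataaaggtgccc
Hspa8: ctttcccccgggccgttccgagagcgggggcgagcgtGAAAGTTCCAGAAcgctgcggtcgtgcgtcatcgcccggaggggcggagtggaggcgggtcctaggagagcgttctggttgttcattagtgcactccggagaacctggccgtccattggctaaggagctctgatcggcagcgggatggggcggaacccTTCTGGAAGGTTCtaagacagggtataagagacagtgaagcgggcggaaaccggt

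All 5 windows held at least 1 match, against 13.5% of the 33469 promoters of the same length in the table. Hsph1 had 3 matches, Hspb1 had 2, and Dnajb1 and Bag3 had 1 each. The constitutive gene Hspa8 had 4, the most of the 5. They formed 2 runs of 3 alternating units, in which overlapping pairs share the middle unit, and Hsph1 had 1 such run at bases -36 to -24 from the start. Such runs stood in 0.663% of all promoters. A match is a description of the letters and not a measured binding site, and the presence of matches did not separate Hspa8 from the inducible genes. The window of Hsp90ab1, the constitutive HSP90 gene, held 0 matches. It lay at chr9:22930173-22930422 (plus strand) and ran past the RefSeq gene start at 22930249, so it cannot be set beside the windows of the members.

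Hsp90aa1 could not be described. It had 19 UMIs in the control matrix and 10 in the CIA matrix, while its constitutive relative Hsp90ab1 had 124296 and 137611. RefSeq names 16 pseudogenes after Hsp90aa1, 23 after Hsp90ab1 and 33 after Hspa8, and the sources used here do not say how the authors' counting treated reads that match several copies. The levels of Hsp90aa1, and in part those of Hspa8 and Hsp90ab1, are therefore uncertain. Hspa1a, the best known inducible HSP70 gene, had 7 and 2 UMIs, and Hspa1b was not among the genes listed for both libraries. The results below are for the other 6 members, of which 5 are inducible.

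Hsph1 differed widely between classes in the control library and little in the CIA library. In control it stood at 898 CPM (95% interval 883 to 912) in macrophage-gated cells, 320 CPM (300 to 341) in chondrocyte-gated cells, 192 CPM (184 to 201) in endothelial-gated cells and 106 CPM in both lining-gated (94.4 to 120) and fibroblast-gated cells (102 to 110). All intervals here cover counting error only. Its CIA levels lay between 79.3 CPM in lining-gated and 107 CPM in chondrocyte-gated cells, and each level's interval overlapped that of its neighbour in the order. Macrophage-gated cells, the highest of the compared classes in control, stood at 83.6 CPM (80.5 to 86.8) in CIA. Hsph1 was thus 10.7-fold lower (10.3 to 11.2) in macrophage-gated cells, 2.98-fold lower (2.13 to 4.31) in chondrocyte-gated cells and 2.06-fold lower (1.87 to 2.26) in endothelial-gated cells of the CIA library. The ratio was 1.32 (1.25 to 1.39) in fibroblast-gated and 1.34 (1.16 to 1.55) in lining-gated cells, control over CIA.

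By summed UMIs, chondrocyte-gated cells of the control library had the most Dnajb1 of the compared classes, at 471 CPM (447 to 496). Macrophage-gated cells followed at 389 CPM (379 to 399). Endothelial-gated cells stood at 168 CPM (159 to 176), lining-gated cells at 100.4 CPM (88.7 to 113) and fibroblast-gated cells at 55.9 CPM (53.1 to 58.8), with no overlap between neighbours. The order changed in CIA, where macrophage-gated cells led with 134 CPM (130 to 138) and the other 4 classes lay between 33.7 and 45.6 CPM. The CIA chondrocyte level, 33.7 CPM from 11 UMIs (16.8 to 60.3), overlapped with those of fibroblast-gated, endothelial-gated and lining-gated cells. The fold was 14.0 lower (7.79 to 28.1) in chondrocyte-gated, 4.21 (3.67 to 4.84) in endothelial-gated, 2.91 (2.80 to 3.02) in macrophage-gated and 2.20 (1.87 to 2.60) in lining-gated cells. In fibroblast-gated cells it was 1.66 (1.54 to 1.79). Per cell, control macrophage-gated cells stood above control chondrocyte-gated cells, with a median of 212 CPM against 142 CPM. Unthinned, 77.8% and 68.2% of these cells had a Dnajb1 UMI. The lead of the chondrocyte sum thus came from a minority of its cells, which the counting intervals do not show.

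Of the compared classes, macrophage-gated cells had the most Bag3 in control, as with Hsph1, and the level was nearly even between classes in CIA. Control levels were 283 CPM (275 to 292) in macrophage-gated, 221 CPM (204 to 238) in chondrocyte-gated, 93.9 CPM (87.8 to 100.3) in endothelial-gated, 85.4 CPM (74.6 to 97.2) in lining-gated and 56.9 CPM (54.0 to 59.8) in fibroblast-gated cells, and only the endothelial and lining levels overlapped. CIA levels lay between 42.9 and 57.5 CPM in all 5 classes, and every neighbour in that order overlapped. Bag3 was 5.15-fold lower (3.05 to 9.47) in chondrocyte-gated, 5.13-fold lower (4.86 to 5.42) in macrophage-gated and 2.00-fold lower (1.75 to 2.30) in endothelial-gated cells. Its ratio of control to CIA was 1.48 in lining-gated and 1.30 in fibroblast-gated cells.

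By summed UMIs and among the compared classes, Hspb1 was highest in chondrocyte-gated cells in control and in lining-gated and endothelial-gated cells in CIA. Its control level was 5713 CPM (5628 to 5800) in chondrocyte-gated, 2879 CPM (2844 to 2913) in endothelial-gated, 2389 CPM (2330 to 2448) in lining-gated, 1313 CPM (1296 to 1331) in macrophage-gated and 915 CPM (904 to 927) in fibroblast-gated cells. In CIA the lining (1374 CPM) and endothelial (1358 CPM) levels overlapped, chondrocyte-gated cells stood at 793 CPM (699 to 896), fibroblast-gated cells at 556 CPM and macrophage-gated cells at 331 CPM. Chondrocyte-gated cells were 7.2-fold lower (6.37 to 8.18) in CIA. Macrophage-gated cells were 3.97-fold lower (3.88 to 4.06) and endothelial-gated cells 2.12-fold lower (2.07 to 2.17), while the ratio was 1.74 in lining-gated and 1.65 in fibroblast-gated cells. Per cell, control medians were alike at 1758 CPM in chondrocyte-gated, 1795 CPM in lining-gated and 1676 CPM in endothelial-gated cells. The chondrocyte sum of 5713 CPM lay far above its median cell and near the upper quartile of 6245 CPM. The median of CIA chondrocyte-gated cells was 519 CPM.

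Cryab, the other small heat-shock protein and one that skeletal muscle makes in large amounts, was highest in mesenchymal classes. Its control level was 195 CPM (179 to 211) in chondrocyte-gated, 50.4 CPM (42.2 to 59.7) in lining-gated and 9.42 CPM (8.30 to 10.7) in fibroblast-gated cells, against 2.09 CPM in macrophage-gated and 1.28 CPM in endothelial-gated cells, whose intervals overlapped. CIA sums held 1 UMI in chondrocyte-gated, 22 in lining-gated and 59 in fibroblast-gated cells. The ratio of control to CIA was 63.6 (11.4 to 2518) in chondrocyte-gated, 16.2 (10.3 to 26.8) in lining-gated and 5.65 (4.24 to 7.63) in fibroblast-gated cells. Macrophage-gated cells (33 and 7 UMIs) and endothelial-gated cells (12 and 1 UMIs) were under the minimum of 100 UMIs over both sums and were not compared. Skeletal muscle markers moved with Cryab in chondrocyte-gated cells: their sum was 383 CPM in control, with 7 of 12 markers above 0, and 76.5 CPM in CIA, with 3 of 12 above 0. Without the 41 control cells and 1 CIA cell that held at least 3 UMIs of these markers, the ratio was 41.0 in chondrocyte-gated cells, and it was 16.6 in lining-gated and 4.26 in fibroblast-gated cells without such cells. In chondrocyte-gated cells as a whole, the part of muscle RNA in the Cryab level was not tested beyond that.

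Hspa8, the constitutive member, had the smallest ratio of the members in every class but lining, where that of Hsph1 was smaller and their intervals overlapped. Control levels were 1986 CPM (1964 to 2008) in macrophage-gated, 1574 CPM (1548 to 1599) in endothelial-gated, 1078 CPM (1041 to 1116) in chondrocyte-gated, 956 CPM (919 to 994) in lining-gated and 753 CPM (743 to 764) in fibroblast-gated cells. In CIA they were 1109 CPM in endothelial-gated, 973 CPM in macrophage-gated, 659 CPM in lining-gated, 649 CPM (565 to 743) in chondrocyte-gated and 612 CPM in fibroblast-gated cells, the chondrocyte level overlapping with both neighbours. Macrophage-gated cells reached a 2-fold difference, 2.04 (2.01 to 2.07). The ratio of control to CIA was 1.66 in chondrocyte-gated, 1.45 in lining-gated, 1.42 in endothelial-gated and 1.23 in fibroblast-gated cells. A single CIA cell held 13.9% of the thinned Hspa8 UMIs of chondrocyte-gated cells, and without the top cell of each library the ratio there was 2.03.

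**Figure D1:**
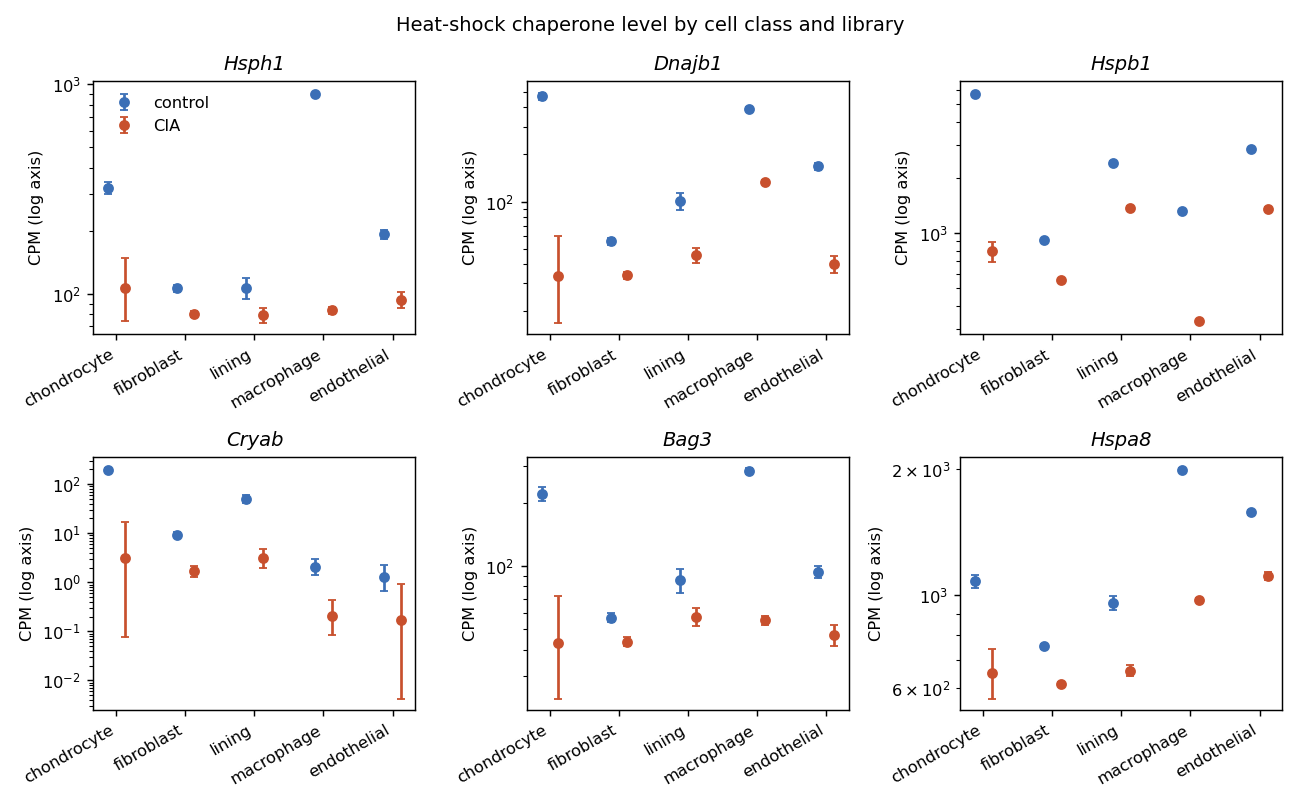
Level of each measured member in CPM (log axis, with its own range in each panel) by cell class, for the control library (blue) and the CIA library (red); bars are exact 95% Poisson intervals for counting error. The control point lies above the CIA point in every class of every panel. Hsph1 and Bag3 spread widely between classes in control and sit close together in CIA.

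All 28 measured ratios (6 members in 3 classes, 5 members in macrophage-gated and endothelial-gated cells) were below 1 with their counting intervals, so every measured member was lower in CIA in every class. Of these, 17 passed the fixed rule of size (at least 2-fold, with the interval wholly beyond 1.5-fold) and 0 passed it in the other direction, where 3.88% of genes did in chondrocyte-gated, 0.369% in fibroblast-gated, 1.15% in lining-gated, 0.551% in macrophage-gated and 0.271% in endothelial-gated cells. In chondrocyte-gated cells 5 of 6 members passed, where 5.81% of 3323 measured genes were lower by the rule. In macrophage-gated cells it was 5 of 5, against 3.88% of 9794 genes. Endothelial-gated cells had 4 of 5 members lower, against 1.5% of 8482 genes, and lining-gated cells had 2 of 6 (Cryab and Dnajb1), against 2.75% of 6940 genes. Fibroblast-gated cells had 1 of 6 (Cryab), against 1.31% of 10839 genes. The median log2 ratio of the members was -2.61 in chondrocyte-gated, -1.99 in macrophage-gated, -1.04 in endothelial-gated, -0.68 in lining-gated and -0.56 in fibroblast-gated cells, beside 0.24, 0.10, 0.10, -0.08 and 0.06 over all measured genes. Over all kept cells of each library, 5 of 6 members were lower and 0 higher, against 4.27% and 0.811% of 12822 genes. In endothelial-gated cells the count rests on values close to the limit: without the cell of each library with the most UMIs of the gene it was 2 of 5, with Hsph1 at 1.99-fold and Bag3 at 1.91-fold lower.

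**Figure D2:**
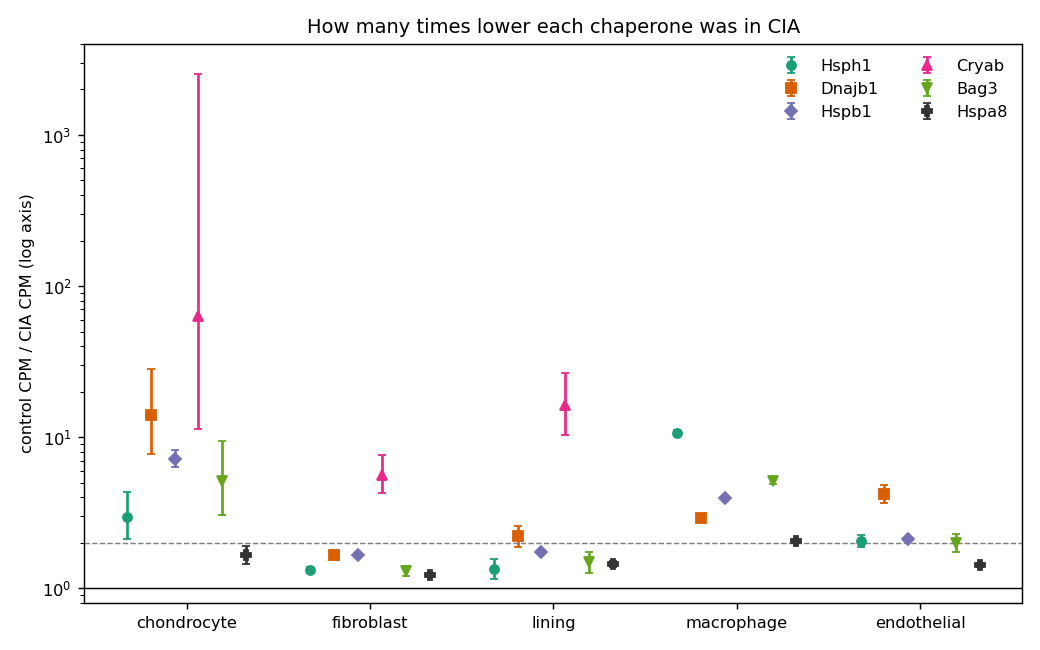
Ratio of control CPM to CIA CPM for each member and class (log axis) with exact conditional 95% intervals for counting error; the solid line is no difference and the dashed line 2-fold. Every point lies above the solid line. The classes differ in which member leads: Cryab in chondrocyte, fibroblast and lining, Hsph1 in macrophage and Dnajb1 in endothelial.

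Apart from Hspa8 in macrophage-gated cells, no constitutive chaperone measured here passed the rule. Of the other constitutive cytosolic chaperones (a list of 22 genes that includes Hsp90ab1 and the mitochondrial Hspa9 and Trap1), 0 of 19 measured in chondrocyte-gated cells and 0 of 22 in each of the other classes passed the rule. Their median log2 ratio was 0.22 in chondrocyte-gated, 0.12 in fibroblast-gated, -0.07 in lining-gated, 0.11 in macrophage-gated and 0.18 in endothelial-gated cells, close to that of all genes. The chaperones of the endoplasmic reticulum, 15 or 16 measured per class, also had 0 past the rule, with medians from 0.11 to 0.48. Hspa5 (BiP), the HSP70 of that compartment, stood at 926 CPM in control and 934 CPM in CIA chondrocyte-gated cells. In macrophage-gated cells it was 850 and 519 CPM, a ratio of 1.64, and Hsp90ab1 was 2125 and 1226 CPM there, a ratio of 1.73. Hsf1, the gene of the heat-shock factor itself, was at 17.3 CPM in control and 17.6 CPM in CIA macrophage-gated cells, and its interval included a ratio of 1 in each of the 4 classes where it was measured.

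Other chaperones known as HSF1 targets moved only in part. Of 15 listed, 3 of 11 measured were lower in chondrocyte-gated cells: Dnajb4 (4.34-fold), Dnaja1 (4.25-fold), both HSP40 proteins, and Hspb8 (2.88-fold), a small heat-shock protein that binds Bag3. In macrophage-gated cells 2 of 12 were lower, again Dnaja1 (4.90-fold, from 1176 to 240.2 CPM) and Dnajb4 (4.33-fold). None of 11 measured passed in fibroblast-gated, lining-gated or endothelial-gated cells. Stip1, Ahsa1, Fkbp4 and Chordc1, the co-chaperones of HSP90, and the mitochondrial chaperonins Hspd1 and Hspe1 passed in no class. Among the remaining small heat-shock proteins, Hspb6 was lower in chondrocyte-gated (5.16-fold) and lining-gated cells (2.42-fold). Cryaa was the only chaperone of these lists past the rule in the other direction, higher in CIA fibroblast-gated cells at 1.92 against 4.52 CPM.

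Immediate-early genes, which stress and cell handling switch on within minutes, moved with the inducible members. By the same rule 20 of 20 measured were lower in CIA chondrocyte-gated cells, 16 of 21 in macrophage-gated, 17 of 21 in endothelial-gated, 13 of 21 in lining-gated and 8 of 22 in fibroblast-gated cells. The factor Atf3 was 18.2-fold lower in chondrocyte-gated, 5.99-fold in endothelial-gated, 4.10-fold in lining-gated, 3.41-fold in macrophage-gated and 3.37-fold in fibroblast-gated cells. Fos in chondrocyte-gated cells was 4068 CPM in control and 995 CPM in CIA. A list of 13 genes of proteotoxic or oxidative stress moved only in part. By the rule 3 of 9 measured were lower in chondrocyte-gated, 5 of 12 in macrophage-gated and 3 of 11 in endothelial-gated cells. Lining-gated and fibroblast-gated cells had 1 of 12 each, and in fibroblast-gated cells 7 of the 12 had a ratio below 1. Of this list, Ppp1r15a (GADD34, which reverses the block on translation under stress) was lower in all 5 classes, by 6.09-fold in chondrocyte-gated and 2.40-fold in fibroblast-gated cells. Cells thinned to 4000 UMIs held a median of 74 immediate-early UMIs in control and 11 in CIA chondrocyte-gated cells, 69 and 21 in macrophage-gated, 21 and 9 in endothelial-gated, 16 and 9 in lining-gated, and 13 and 7 in fibroblast-gated cells. The median mitochondrial share was 6.22% in control and 5.22% in CIA fibroblast-gated, 7.90% and 7.02% in endothelial-gated, 5.31% and 4.82% in lining-gated, 5.37% and 5.60% in macrophage-gated and 3.96% and 3.99% in chondrocyte-gated cells. It was thus higher in control in the first 3 of these classes. The part of cell handling or of RNA quality in these differences was not tested.

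Cells were then compared within bands of this sum over 23 immediate-early genes, a comparison added after the values had been seen. Among fibroblast-gated cells with fewer than 20 such UMIs, the 10 ratios of control to CIA for Hsph1, Dnajb1, Hspb1, Bag3 and Hspa8 in 2 bands lay between 0.970 and 1.20. In 6 of the 10 the interval included 1, and Hspb1 stood at 509 CPM in control and 501 CPM in CIA in the lowest band (0 to 9). Endothelial-gated cells gave 0.779 to 1.32 below 20 UMIs, with 8 of 10 intervals including 1, and there Hspb1 was higher in CIA in the lowest band (951 and 1220 CPM). Lining-gated cells gave 0.802 to 1.6. From 20 UMIs up, 5 of 10 ratios in fibroblast-gated and 3 of 10 in endothelial-gated cells were at least 2-fold lower in CIA. Hspb1 in the band of 40 to 79 was 2452 CPM in control and 713 CPM in CIA fibroblast-gated cells, and 4011 and 1471 CPM in endothelial-gated cells, with 25 and 20 CIA cells in that band. From the lowest band to this one, Hspb1 thus differed far more in control than in CIA, while Hsph1 in CIA did not climb in either class.

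Macrophage-gated cells behaved differently in this comparison. In the lowest band Hsph1 stood at 82.2 and 76.2 CPM (ratio 1.08, interval 0.797 to 1.43), but Hspb1 was already 3.35-fold lower (2.90 to 3.86), at 381 against 114 CPM. Erythroid cells held Hspb1 at 101 CPM in control and 47.3 CPM in CIA, and control B lineage cells at 171 CPM. The part of RNA from other cells of the library in these levels was not tested. From the lowest to the highest band (80 or more) Hsph1 went from 82.2 to 1401 CPM in control and from 76.2 to 198 CPM in CIA. At 40 to 79 UMIs, with 355 control and 603 CIA cells, Hsph1 was 9.80-fold lower (8.94 to 10.8). Dnajb1 had ratios of 1.16 to 1.71 over the 5 bands, and reached 602 CPM in control and 488 CPM in CIA in the highest band. Bag3 was 2.91-fold to 3.16-fold lower in the 3 bands from 20 UMIs up. Chondrocyte-gated CIA cells were too few in every band to compare, and what part the immediate-early response has in the whole-class ratios of that class was not tested.

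**Figure D3:**
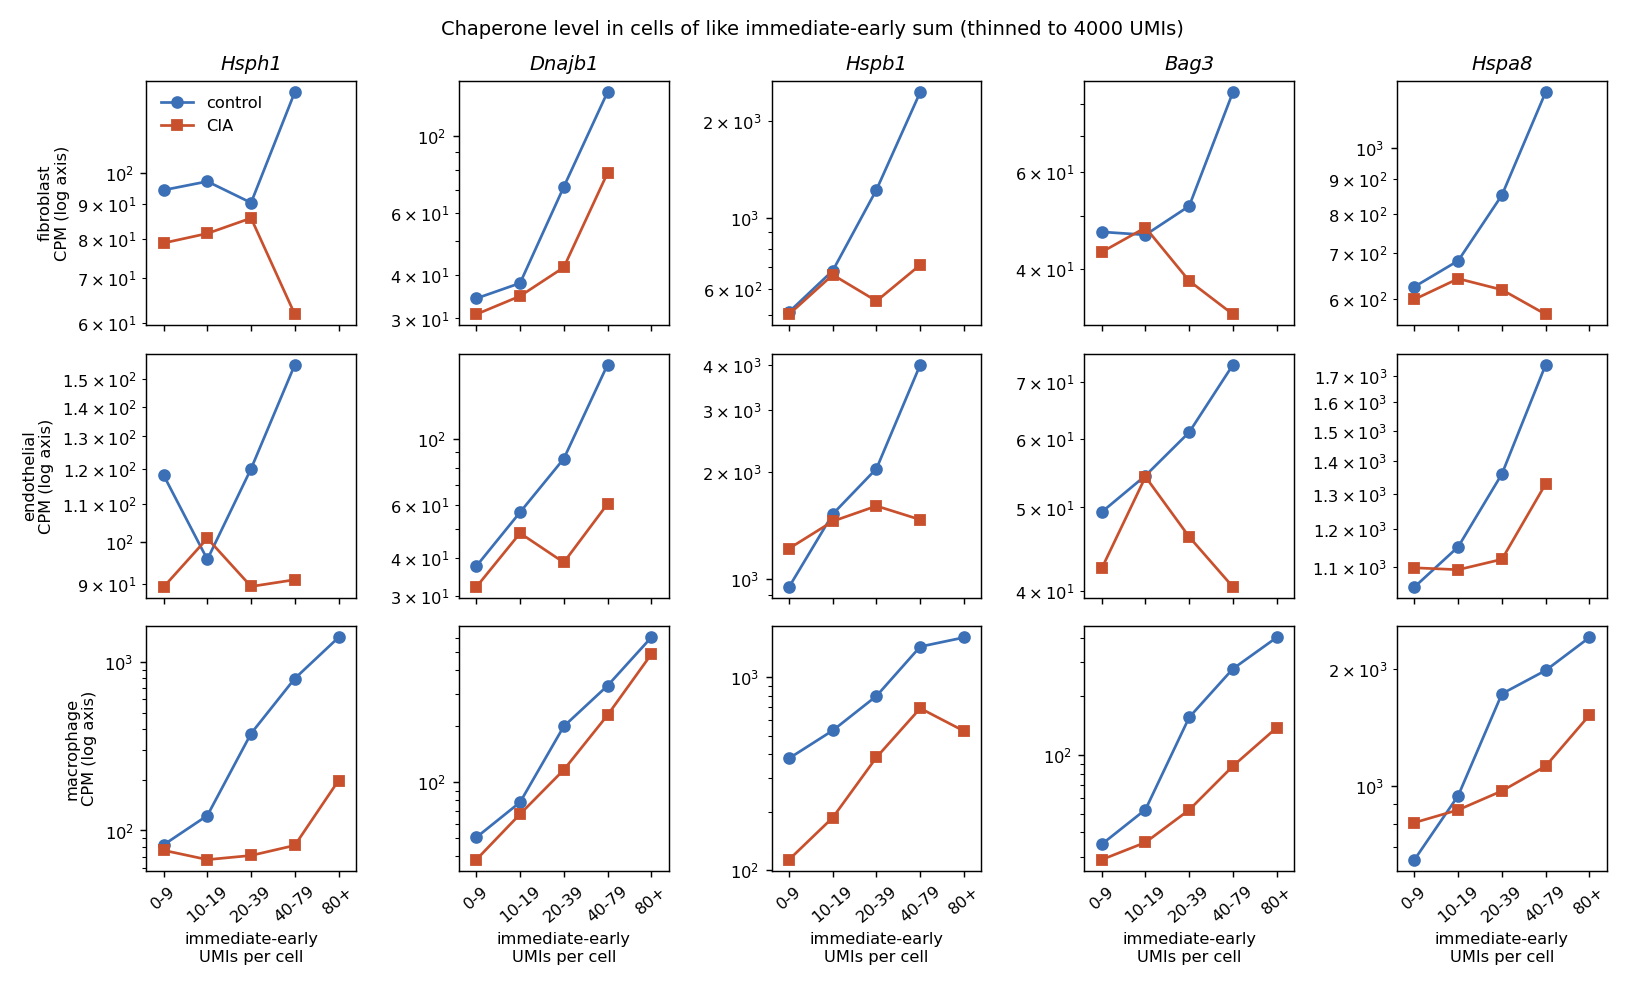
CPM (log axis, each panel with its own range) of 5 members in cells grouped by the summed UMIs of 23 immediate-early genes at 4000 UMIs per cell, in fibroblast-gated, endothelial-gated and macrophage-gated cells of control (blue circles) and CIA (red squares); bands with under 20 cells in a library are left out. The lines lie close together below 20 UMIs in the upper 2 rows. In the macrophage row those of Dnajb1 run side by side while those of Hsph1 separate from the second band on.

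Single Leiden clusters with at least 100 gated cells in each library gave the same directions. Unlike the gates, these clusters were built from 2000 variable genes with no member taken out. They need not be independent of the values compared. Within macrophage cluster 3 (671 control and 939 CIA cells) Hsph1 was 14.8-fold lower, Bag3 5.30-fold, Hspb1 2.89-fold, Dnajb1 2.42-fold and Hspa8 2.11-fold. Cluster 4 (140 and 1552 cells) had smaller differences, with Hsph1 at 2.71-fold, Bag3 at 2.53-fold, Hspa8 at 1.27-fold and Dnajb1 at 1.11-fold lower, the last with an interval that included 1. Hspb1 was 3.02-fold lower there. In cluster 6 (239 and 226 cells) Hsph1 was 7.02-fold lower and Dnajb1 1.27-fold. The macrophage class was also split by the complement genes C1qa, C1qb and C1qc. Hsph1 was 12.7-fold lower where at least 2 of the 3 were detected and 10.1-fold lower in the rest, and Hspb1 3.78-fold and 4.02-fold. All 5 measured members passed the rule in both, against 3.38% and 3.79% of genes. Endothelial cluster 10 held nearly all endothelial-gated cells and gave 4.17-fold for Dnajb1 and 1.99-fold for Bag3. The 4 fibroblast clusters compared gave 1.12-fold to 2.31-fold, apart from Cryab at 5.68-fold in cluster 0.

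The balance of inducible to constitutive chaperones can be read without scaling to a library total. UMIs of the 5 measured inducible members were summed and divided by those of Hspa8. UMI counts of different genes need not be captured alike, so the ratio is compared between classes and libraries only. It was 6.42 (6.18 to 6.66) in control and 1.51 (1.26 to 1.80) in CIA chondrocyte-gated cells. Macrophage-gated cells went from 1.45 (1.43 to 1.47) to 0.620 (0.609 to 0.631), endothelial-gated cells from 2.12 to 1.39, lining-gated cells from 2.86 to 2.37 and fibroblast-gated cells from 1.52 to 1.17. Hspb1 supplied 77.7% to 88.3% of the inducible UMIs in the 4 non-macrophage classes of both libraries, but 45.5% in control and 54.8% in CIA macrophage-gated cells.

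For the remaining gated classes, with at most 43 control cells each, the balance was computed but no ratio per gene. B lineage cells, found only in the control library (43 cells), had the lowest balance there, 0.325 (0.276 to 0.381), with Hspa8 at 1388 CPM beside Hspb1 at 171 CPM and Bag3 at 15.3 CPM. Osteoclast-gated cells, the bone-resorbing relatives of macrophages, stood at 0.987 in control (33 cells) and 0.339 in CIA (103 cells). Neutrophil lineage cells stood at 1.06 and 0.453 (40 and 75 cells), and T or NK cells at 0.851 and 0.426 (10 and 11 cells). In control, the 10 T or NK cells held Hsph1 at 914 CPM (711 to 1157) and Dnajb1 at 623 CPM (458 to 828). Both levels were above those of every compared class, with intervals that overlapped the highest of them. Hsph1 stood at 393 CPM in control neutrophil lineage and 358 CPM in control osteoclast-gated cells, between the macrophage and chondrocyte levels. Only in osteoblast-gated cells did the balance go the other way, from 1.35 (1.03 to 1.78) in control to 5.27 (2.74 to 11.1) in CIA. With 16 and 3 cells, it is no result for the class. Of the 58 inducible UMIs in CIA, 55 were of Hspb1, found in 2 of the 3 cells, with a median of 229 CPM and a highest cell of 10510 CPM. The summed balance of pericyte or smooth muscle cells was close to that of lining cells, at 2.84 and 2.11 (23 and 36 cells), but rested in part on single cells. At 4000 UMIs their median inducible sum was 6 and 3 UMIs, with a highest cell of 91 and 81, while lining medians were 9 and 4. Pericyte or smooth muscle cells held the most Cryab of any class in control, 320 CPM (252 to 400.3), and 19.3 CPM in CIA. These Cryab levels rested on 76 UMIs in 6 of the control cells and 5 UMIs in 3 of the CIA cells. Erythroid cells, which shut down most other transcription, should hold little of these RNAs: Hspa8 stood at 166 and 142 CPM and Hspb1 at 101 and 47.3 CPM in 13 control and 14 CIA cells, below the levels of the 5 compared classes.

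The members also differed in how evenly cells of a class used them. The spread beyond counting error was taken as the variance minus the mean, divided by the squared mean, of UMIs per cell thinned to 4000 UMIs. Over the 5 control classes it was 1.06 to 4.53 (median 2.07) for Hsph1, Dnajb1, Hspb1 and Bag3, and 0.0852 to 0.482 (median 0.254) for Hspa8 and Hsp90ab1, so that the groups did not overlap. In CIA the inducible genes gave 0.267 to 8.82 (median 1.25, 17 values of at least 20 UMIs) and the constitutive pair 0.0693 to 0.632 (median 0.197), and there the ranges overlapped. Hspa8 had a UMI in 97.9% of control and 93.1% of CIA macrophage-gated cells at this depth (99.5% and 98.7% unthinned). Hsph1 had one in 75.4% and 25.5% (88.0% and 46.5% unthinned), with a median depth of 12106 and 9616 UMIs per cell.

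**Figure D4:**
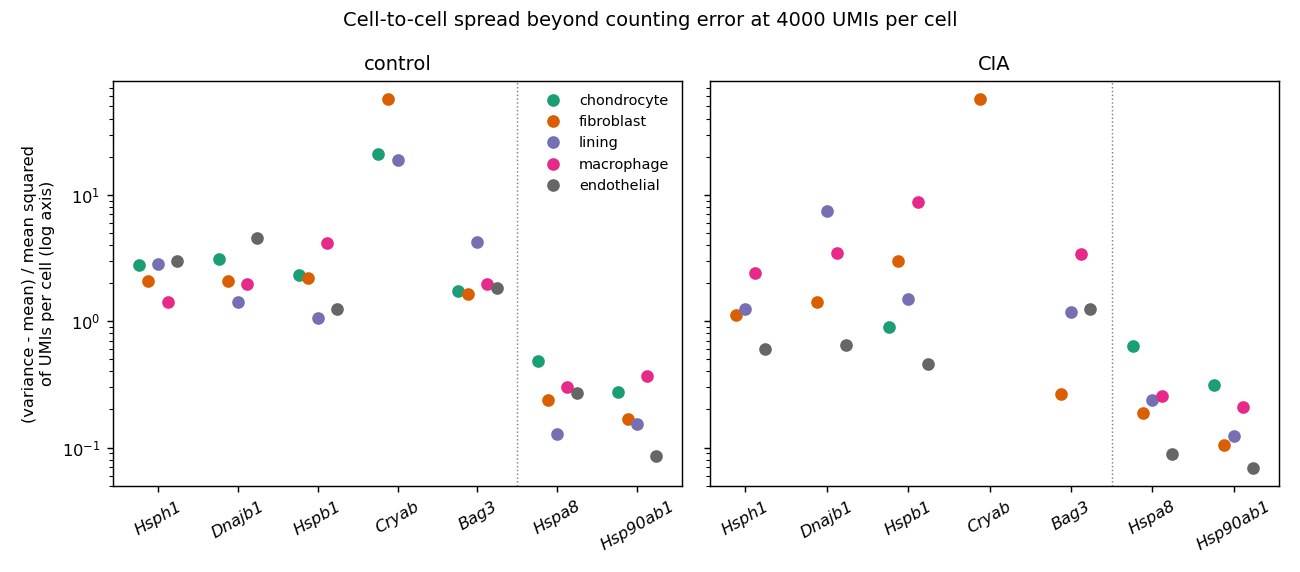
Cell-to-cell spread beyond counting error (variance minus mean, over the squared mean, log axis) of UMIs per cell thinned to 4000, for each member and Hsp90ab1, by class (colours) in control (left) and CIA (right); values with too few UMIs are left out. The constitutive genes right of the dotted line lie lowest in control, at or under 0.482, below every inducible value. Cryab lies highest.

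Cryab was the most uneven member. Of 283 control chondrocyte-gated cells, 34 (12%, 8.47 to 16.4) had a Cryab UMI at 4000 UMIs per cell and 17.7% unthinned, and the 10% of cells with the most held 97.4% of its UMIs. A single cell carried 20% of them. In CIA no chondrocyte-gated cell had one at that depth (0 of 32, exact upper bound 10.9%), and 1 did unthinned. Macrophage-gated cells, which should lack the gene, had a Cryab UMI in 0.892% of control and 0.0999% of CIA cells. The 34 Cryab-positive cells had a median of 22 Hspb1 UMIs against 6 in the other 249, at a similar immediate-early sum (81 and 73) and with somewhat more UMIs before thinning (10569 and 8535). Their median of Chad was 48.5 against 39, and that of Col2a1 was 83 against 66. Tnni2, from the list of muscle markers, averaged 3.03 UMIs in them and 1.23 in the rest, with a median of 0 in both.

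Hspb1 in macrophage-gated cells was concentrated in a minority. At 4000 UMIs its median was 1 UMI in control and 0 in CIA, while the 10% of cells with the most held 62.9% and 79.3% of the UMIs, and the spread value was 4.16 and 8.82. Cells with at least 10 Hspb1 UMIs, a limit set after the values had been seen, made up 15.4% (13.4 to 17.7) of control and 3.53% (2.90 to 4.25) of CIA macrophage-gated cells. In control these 173 cells had a mean of 5.66 Hsph1 UMIs, beside 3.80 in the other 948, and a median immediate-early sum of 81 against 67. In CIA the 106 cells had a mean of 0.425 Hsph1 UMIs, beside 0.362 in the other 2896, and of 1.29 Dnajb1 UMIs, beside 0.548. Their median immediate-early sum was 50 UMIs against 20. In these CIA cells the fibroblast gene Col1a1 was at 3.70 UMIs on average, beside 4.09 in the others, and the chondrocyte gene Chad was at 0. In the control cells with at least 10 Hspb1 UMIs, Col1a1 was at 4.72, beside 5.13, and Chad at 0.197, beside 0.180. No endothelial marker was compared, and whether RNA of other classes was mixed in was not tested.

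Counting how many of the 5 measured inducible members a cell showed gave the same contrast per cell. At least 3 were detected in 46.3% (40.4 to 52.3) of control and 6.25% (0.766 to 20.8) of CIA chondrocyte-gated cells. The shares were 49.7% and 7.13% in macrophage-gated, 21.4% and 9.61% in endothelial-gated, 24.3% and 8.54% in lining-gated, and 11.9% and 6.10% in fibroblast-gated cells. Unthinned, they were 71.4% and 28.1% in chondrocyte-gated, 77.6% and 27.1% in macrophage-gated, 57.2% and 36.1% in endothelial-gated, 61.8% and 50.6% in lining-gated, and 49.5% and 33.7% in fibroblast-gated cells. At 4000 UMIs, 5.44% of control and 34.5% of CIA macrophage-gated cells showed 0 of the 5 (0.714% and 13.9% unthinned). The median of their summed UMIs went from 10 to 2.5 in chondrocyte-gated and from 8 to 1 in macrophage-gated cells.

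**Figure D5:**
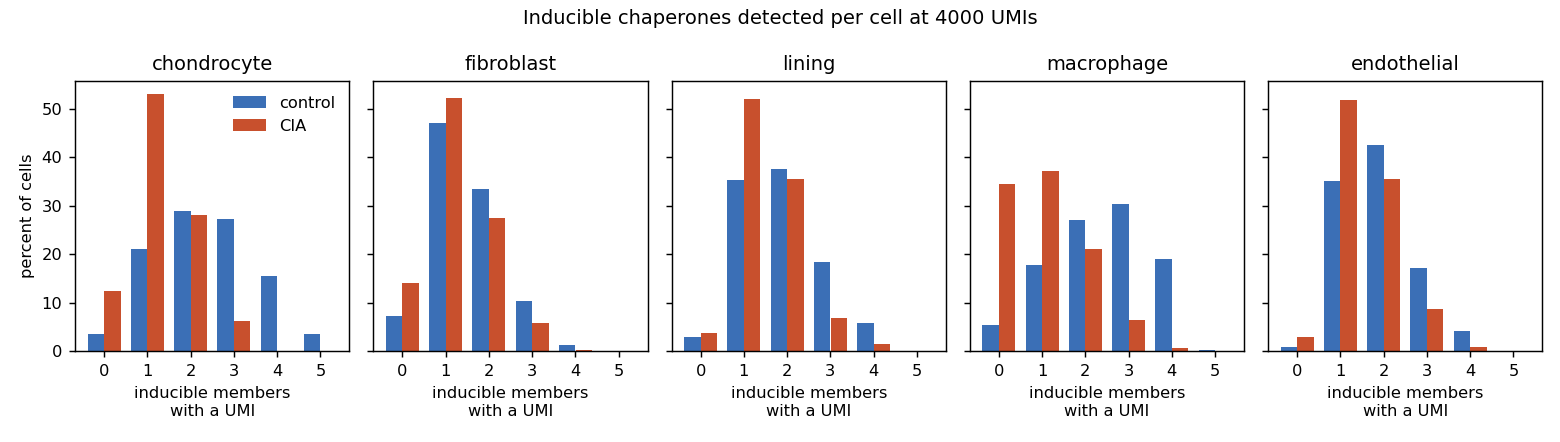
Percent of cells (bars from 0) by the number of the 5 measured inducible members with a UMI at 4000 UMIs per cell, in each class of control (blue) and CIA (red). In chondrocyte-gated and macrophage-gated control cells 46.3% and 49.7% showed at least 3 members. In CIA the bars at 3 or more members sum to 9.61% or less in each class.

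Across cells, the members' counts were correlated in control macrophage-gated cells. The Pearson correlation of log(1 + UMIs) at 4000 UMIs between Hsph1 and Dnajb1 was 0.44 over 1121 control and 0.15 over 3002 CIA cells, between Hsph1 and Bag3 it was 0.37 and 0.10, and between Hsph1 and Hspa8 0.49 and 0.18. Hspb1 stood apart there, with 0.14 to Hsph1 in control and 0.00 in CIA. In control chondrocyte-gated cells (283) Hspb1 did correlate with Dnajb1 (0.45) and Bag3 (0.36). The summed inducible members correlated with the immediate-early sum at 0.64 in control endothelial-gated, 0.57 in macrophage-gated, 0.48 in fibroblast-gated and 0.44 in both lining-gated and chondrocyte-gated cells. In CIA these values were 0.15, 0.37, 0.10, 0.35 and 0.19. They describe cells of 1 library that share depth and handling, and low counts pull such values toward 0, so the lower CIA values are no finding by themselves.

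The genes most like each member over the 10 sums of the 5 classes and 2 libraries were looked up among 8873 genes with at least 1000 UMIs, by Pearson correlation of log2(CPM + 10). For Hsph1 they were Slc7a6os (0.97), Dnaja1 (0.97) and Arl5b (0.96), and for Bag3 they were Ifrd1 (0.99), Fbxo30 (0.98) and Map3k8 (0.97). Dnajb1 was most like the stress genes Gadd45b (0.97), Ddit3 (0.96) and Csrnp1 (0.96). Among the genes most like Hspb1 were Bambi (0.93) and Edrf1 (0.93). Cryab was nearest to Bmp2 (0.95), Nr1d1 (0.95) and Myoc (0.95), and Hspa8 to Icam1 (0.98), AABR07048992.1 (0.96) and Polg2 (0.93). Among the members themselves Hsph1 and Bag3 were closest (0.95), then Dnajb1 and Bag3 (0.91), while Hspb1 and Cryab were at 0.31 and -0.02 to Hspa8. The 10 sums share 2 libraries, and the values are a description.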

How the data were processed

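Per the labels' protocols, cartilage was dissociated enzymatically and libraries were made with a Chromium 3' kit, but the barcodes in the files do not have that kit's structure, so the chemistry is uncertain. The authors deposited raw UMI counts per gene and cell, 1 matrix per library. Per the submitters' processing notes the build was mRatBN7.2; aligner and cell calling are not stated. The members and lists were chosen with earlier results of these data known.

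Cells with under 200 genes or over 20% mitochondrial UMIs were dropped, and doublets called by Scrublet were removed (62 control, 166 CIA; Python 3.11.15, scanpy 1.11.5). Classes needed a fixed number of markers at 4000 UMIs per cell (6 of 13 for chondrocytes and for macrophages, 6 of 11 for fibroblasts, 4 of 7 for lining, 4 of 11 for endothelium). Cells passing several gates were set aside, except that chondrocyte, lining, pericyte, osteoblast, osteoclast and neutrophil gates took precedence over fibroblast or macrophage, and chondrocyte over lining. Counts were summed per class and scaled to the total of genes listed for both libraries (CPM). Ratios carry exact conditional 95% intervals, and genes needed at least 100 UMIs over both sums. All 7 members are named throughout, and up to 3 genes per list and direction. The ratio rule was tested on simulated Poisson counts, which hold counting error only and no spread between cells or animals. TMM factors came from edgeR 4.0.16. Promoters came from the RefSeq table of build GRCr8. Some named genes are not reported here.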

Additional observations from a re-analysis of the deposited data

How the results depend on the processing

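No paired analysis was possible because each group had 1 library. Over other filters, gates, scalings and size rules 245 of 245 recomputed member ratios stayed below 1, and 29 moved beyond the counting interval of the reported value. The counts of members lower kept within 1.5 times of the reported ones except in these cases. With the size rule at 1.5-fold, 3 members were lower in fibroblast-gated cells. With the stricter gate 1 was lower in lining-gated cells, since Cryab fell under 100 UMIs. Without the cell of each library with the most UMIs of the gene, an alternative added after seeing the data for these counts, 2 were lower in endothelial-gated cells. Measured against the summed constitutive cytosolic chaperones in place of Hspa8, the inducible sum was 7.17 times higher relative to them in control than in CIA chondrocyte-gated cells (4.25 against Hspa8), 3.92 (2.34) in macrophage-gated, 2.42 (1.53) in endothelial-gated, 1.72 (1.30) in fibroblast-gated and 1.64 (1.21) in lining-gated cells. All genes lower by the 1.5-fold rule were 371 in chondrocyte-gated cells (193 as reported), 427 in fibroblast-gated (142), 651 in lining-gated (191), 784 in macrophage-gated (380) and 282 in endothelial-gated cells (127), and with a minimum of 20 UMIs 249 in fibroblast-gated, 385 in lining-gated and 192 in endothelial-gated cells. TMM scaling shifted the median log2 ratio by -0.24 in chondrocyte-gated and -0.10 in macrophage-gated cells. In chondrocyte-gated cells it moved the share of calls that were higher from 40.1% to 18.7% (28.1% without the 50 most abundant genes), with 5 members lower under each. In macrophage-gated cells TMM gave 34 genes higher in place of 54, 7.13% of calls in place of 12.4%. Within bands of the immediate-early sum and within clusters, both added after seeing the data, 111 of 118 ratios of CIA to control stayed below 1. The 7 that turned were Bag3 in fibroblast-gated cells at 10 to 19 UMIs (1.03), Hsph1 at 0 to 9 (1.25) and Hspb1 at 20 to 39 (1.09) in lining-gated cells, Hspa8 in macrophage-gated cells at 0 to 9 (1.24), and in endothelial-gated cells Hspb1 (1.28) and Hspa8 (1.04) at 0 to 9 and Hsph1 at 10 to 19 (1.05). At 8000 UMIs per cell, at least 3 inducible members were seen in 71.3% of control and 17.7% of CIA macrophage-gated cells and in 70.1% and 21.1% of chondrocyte-gated cells. Lining was no class of the Leiden clusters, so that alternative gave no value there. The 32 CIA chondrocyte-gated cells, the single library per group and the unknown number of animals limit every value.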
